A study of Homo sapiens with 4 samples.

Results

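The DNAJ family, the J-domain cochaperones that bring clients to HSP70, was followed in RNA of HGC27 cells, a human gastric cancer cell line. Members were the genes whose symbol was DNAJA, DNAJB or DNAJC followed by a number alone. This gave 37 of the 14431 genes listed, with 3 in class A, 9 in class B and 25 in class C, and all 37 entered the fit. To ask which transcripts changed when AARS1, the cytosolic alanyl-tRNA synthetase, was depleted under lactate, 2 libraries of wild-type control cells were compared with 2 libraries of cells given an siRNA against AARS1 (siAARS1). Both groups were grown in glucose-free DMEM with serum and antibiotics and received 25 mM lactate, for 24 h by the sample labels. The text of the study gives another duration, so the time is uncertain. No library without lactate was compared, and the cells are 1 line. Nothing in the labels says that replicates were separate cultures, so p-values measure only the spread between these libraries.

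J proteins bind unfolded or newly made proteins and pass them to HSP70. Their J domain, a short helical bundle with a His-Pro-Asp signature in its central loop, speeds up ATP hydrolysis by HSP70 and so closes the chaperone on its client. Class A and class B members carry a glycine- and phenylalanine-rich stretch beside the J domain, class A adds a zinc-binding region, and class C members share only the J domain and work at many different sites in the cell.

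The codons of that signature were looked for in the coding sequence of each member, read in frame as CAT or CAC, then CCN, then GAT or GAC, on the coding strand of the GENCODE v29 transcript (GRCh38). All 37 members held it exactly 1 time, and at least 1 copy was found in 6.25% of the 12363 listed genes with a coding sequence. The windows below show the 57 bases around it, with the signature codons in capitals, for the most abundant class A and class B genes, for the member with the largest fall and for both members with the largest rises.
DNAJA1: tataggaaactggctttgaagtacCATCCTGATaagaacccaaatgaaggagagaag
DNAJB1: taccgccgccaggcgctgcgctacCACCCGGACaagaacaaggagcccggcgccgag
DNAJB5: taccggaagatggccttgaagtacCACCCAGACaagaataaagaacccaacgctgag
DNAJC2: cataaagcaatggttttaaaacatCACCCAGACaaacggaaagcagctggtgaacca
DNAJC13: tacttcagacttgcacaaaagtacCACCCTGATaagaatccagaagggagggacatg
The signature began at codon 34 in DNAJA1, at codon 32 in DNAJB1 and at codon 146 in DNAJB5. It lay at codon 119 in DNAJC2 and at codon 1332 in DNAJC13. Across classes the first signature codon ranged from 34 to 121 in class A, from 31 to 146 in class B and from 31 to 1332 in class C, so the shared element sat at a far wider range of places in class C.

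Sequencing gave 30653210 to 33522573 reads over the listed genes of a library, and 3 reads, the limit that a count of 0 allows, equalled 0.088 to 0.0971 CPM, the reads of a gene relative to all reads of its library. Pearson's r of log2(CPM + 1) over genes was 0.997 between replicates of either group and 0.939 to 0.948 across the groups. The targeted gene, listed as AARS, had 428 and 417 CPM in control against 292 and 298 CPM in siAARS1, which is 69.75% of the control mean (log2 fold change -0.52 ± 0.0357 SE, limma adjusted p = 2.52e-11). Of 5 epithelial markers looked for, 2 were listed. KRT8 had 24.8 and 25.2 CPM in control against 6.61 and 5.08 CPM in siAARS1, and CDH1 stayed under 3 CPM in every library. Of 5 mesenchymal markers 4 were listed. ZEB1 had 6.16 and 6.84 CPM in control against 50.03 and 52.3 CPM in siAARS1, while the other three were lower in both siAARS1 libraries, VIM at 5131 and 5068 CPM against 4710 and 4600 CPM, FN1 at 72.6 and 75.4 CPM against 54.2 and 51.7 CPM, and SPARC at 289 and 286 CPM against 186 and 184 CPM. Of 7 markers of blood, endothelial and liver cells 0 were listed.

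Of the 37 DNAJ genes, 17 rose and 11 fell in siAARS1 at a limma adjusted p under 0.05, and 9 did not pass. Over all 14199 genes tested, 70.7% passed, with 32.6% higher and 38.0% lower. The control and siAARS1 libraries were apart, with no overlap, for 33 of the 37, and for 85.1% of all genes. At 2-fold or more on the scale of CPM + 1, 5 of the 37 members were higher and 0 were lower, near the 10.6% and 1.63% of all genes. Those higher were DNAJC13, DNAJC2, DNAJB14, DNAJC10 and DNAJA1. DNAJB5 fell just short of the cut on that scale (log2 fold change -0.98), though its mean CPM in siAARS1 was 47.23% of control. The median log2 fold change was 0.07 for the members and -0.05 for all genes. By class, 2 of 3 class A members rose and 0 fell, 3 of 9 class B members rose and 3 fell, and 12 of 25 class C members rose and 8 fell. CPM is relative to the library and the RNA is from bulk cells, so fewer cells and less RNA per cell cannot be told apart, and neither shows in these values.

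**Figure D1:**
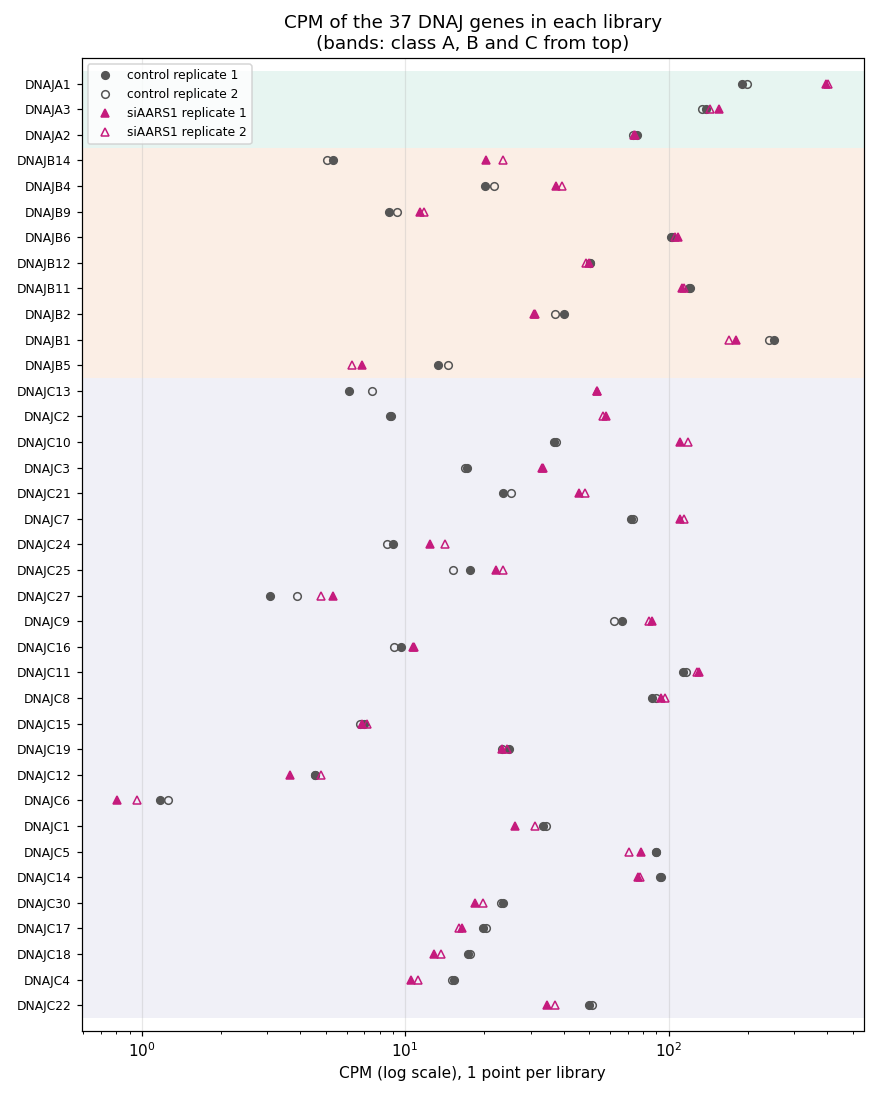
CPM of the 37 DNAJ genes on a log axis, with 1 point per library (circles control, triangles siAARS1) and bands for class A, B and C from the top. The triangles of DNAJC13 and DNAJC2 stand far to the right of their circles, those of DNAJB5 and DNAJB1 to the left, and those of DNAJA2 and DNAJC19 lie on them.

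The calls depended on the processing of the values. Scaling each library to its median shifted the median of all genes to -0.26, and then 12 members were higher and 17 lower. A correction for GC content and transcript length gave 11 higher and 13 lower, with 34.0% and 32.5% of all genes called, and a correction for the coding sequence and 3' UTR gave 14 and 15, with 37.8% and 34.2%. At 2-fold or more, 2 members (DNAJC13 and DNAJC2) stayed higher after either correction, as did 3.59% of all genes after the first and 2.39% after the second. Of the 28 members that passed, 9 kept their call and their direction in all 16 other settings. DNAJA1, DNAJB14, DNAJC2, DNAJC7, DNAJC9, DNAJC13 and DNAJC21 were higher, and DNAJB5 and DNAJC18 were lower.

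**Figure D2:**
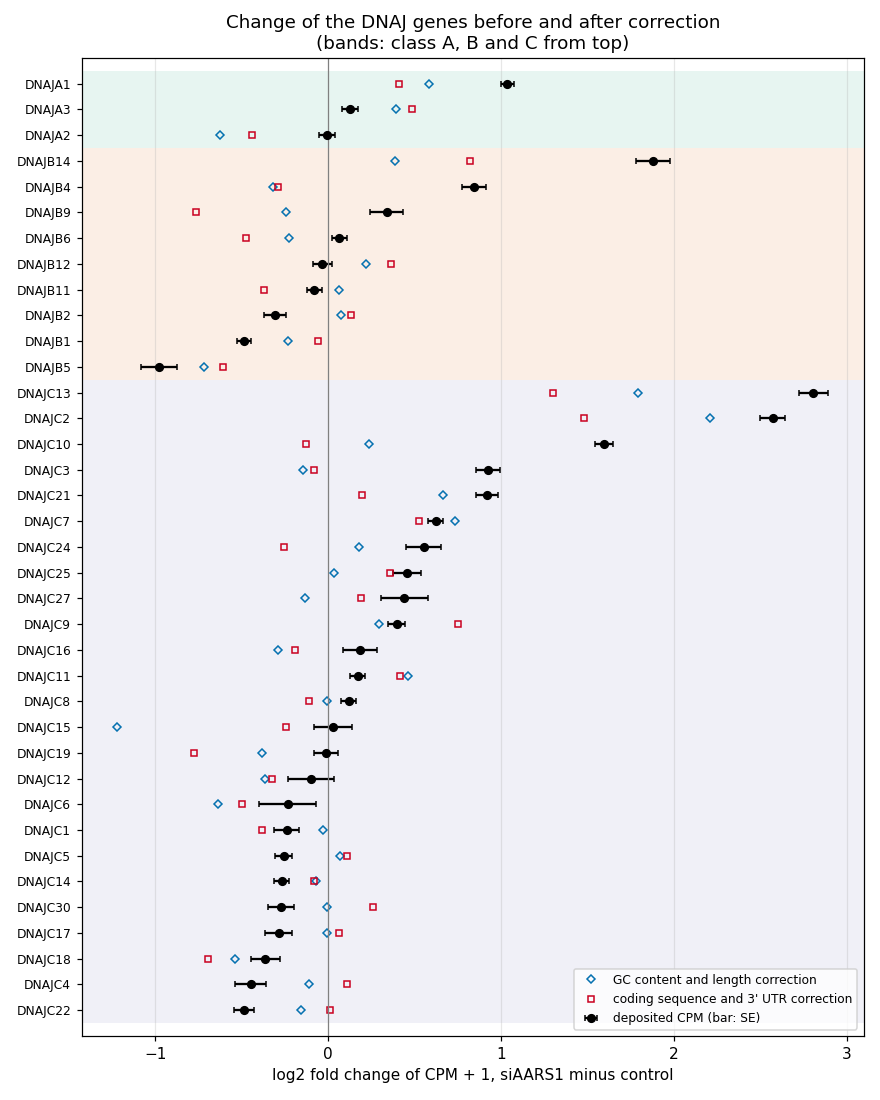
Log2 fold change of CPM + 1 (siAARS1 minus control) of each DNAJ gene, as deposited (black, bar 1 SE of the fit over 4 libraries) and after the corrections for GC content and length (diamonds) and for coding sequence and 3' UTR (squares). DNAJC13 moves from 2.81 to 1.80 and 1.302 and stays to the right, while DNAJC10 moves from 1.60 to 0.24 and -0.13.

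Per kilobase of transcript, the family summed to 736.3 and 733.1 CPM per kb in the control libraries and to 857.5 and 861.4 in the siAARS1 libraries. Class A had the largest gain on this scale, most of it in DNAJA1, which went from a mean of 81.55 to 167.7 CPM per kb. The 3 class A genes summed to 154.3 and 155.3 CPM per kb in control and to 246 and 244.9 in siAARS1. Class B summed to 269 and 264 in control and to 241.5 and 237.3 in siAARS1, and class C to 313 and 313.8 in control and to 370 and 379.3 in siAARS1. In share of the family's summed CPM per kb, class A went from 21.0% and 21.2% to 28.7% and 28.4%, class B from 36.5% and 36.0% to 28.2% and 27.5%, and class C stood at 42.5% and 42.8% in control and at 43.1% and 44.0% in siAARS1. No group overlapped the other in any of these sums. Without division by length class C had the larger gain, from 850.6 and 853.6 to 1083 and 1102 summed CPM, and class A went from 404.7 and 405.8 to 624.8 and 620.6.

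**Figure D3:**
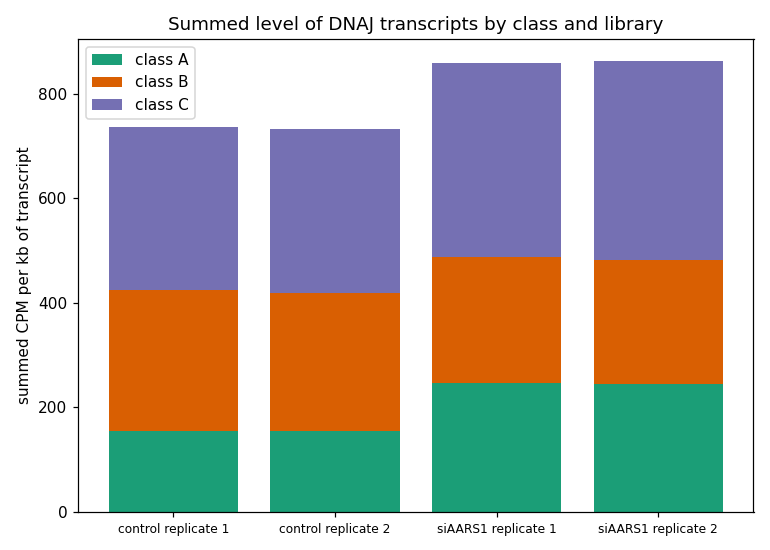
Summed CPM per kb of transcript of the DNAJ genes in each library, stacked by class with the axis from 0. The class A block is 154.3 and 155.3 in the control libraries and 246 and 244.9 in the siAARS1 libraries, and the class B block is smaller in siAARS1.

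The 3 class A genes had unlike changes. DNAJA1, a general cytosolic cochaperone (ENSG00000086061, chr9:33025211-33039907, plus strand of GRCh38), had 189.98 and 198 CPM in control against 396 and 403 CPM in siAARS1. Both siAARS1 libraries stood above both controls, at 2.06 times the control mean (log2 fold change 1.04 ± 0.0373 SE, adjusted p = 2.94e-16). After the corrections the change was 0.58 and 0.41, both past the threshold. The gene has 6 named pseudogenes in the annotation, so how reads were shared with near-identical copies is uncertain. DNAJA2, the other cytosolic class A gene listed, had 75.9 and 73.3 CPM in control against 73.8 and 74.6 CPM in siAARS1. The groups overlapped and the gene did not pass (log2 fold change -0.01, adjusted p = 0.889), but it was lower after both corrections, at -0.62 and -0.44. DNAJA3, the mitochondrial member known as TID1, had 139 and 134 CPM in control against 155 and 143 CPM in siAARS1. Its rise was small before correction (0.13 ± 0.0443 SE, adjusted p = 0.0149). After the corrections it was 0.39 and 0.49, both past the threshold. With median scaling the value was -0.10, and it did not pass without the siAARS1 library of replicate 1 (0.07) or without the control library of replicate 2 (0.10).

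In class B the cytosolic genes moved both ways. DNAJB1, the heat-inducible HSP40 (ENSG00000132002, chr19:14514770-14529770, minus strand), had 251 and 240.1 CPM in control against 179.8 and 169.7 CPM in siAARS1. Both siAARS1 libraries were below both controls (log2 fold change -0.49 ± 0.0407 SE, adjusted p = 6.19e-10). It was -0.23 after the correction for GC content and length, and -0.06 with adjusted p = 0.119 after that for coding sequence and 3' UTR. TECR overlaps it on the other strand and fell as well, from 371 and 378 CPM to 305 and 302 CPM, and whether the counting used strand is not given in the sources used here. DNAJB5, a close relative of DNAJB1 (chr9:34989641-34998900, plus strand), had 13.3 and 14.6 CPM in control against 6.87 and 6.29 CPM in siAARS1. This was the largest fall of the family (log2 fold change -0.98 ± 0.102 SE, adjusted p = 2.43e-08), and it stayed at -0.72 and -0.61 after the corrections.

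DNAJB4, the other gene of that DNAJB1-like group, moved the other way before correction. It had 20.03 and 21.8 CPM in control against 37.3 and 39.4 CPM in siAARS1, a log2 fold change of 0.85 ± 0.0684 SE (adjusted p = 3.87e-10). Its transcript has a GC content of 33.1%, the lowest of the family, and after the corrections it was lower in siAARS1, at -0.32 and -0.29. The CPM ratio of DNAJB4 to DNAJB5 was 1.51 and 1.5 in control and 5.43 and 6.27 in siAARS1. DNAJB2, which carries ubiquitin-interacting motifs, fell from 40.0 and 37.1 CPM to 30.9 and 31.0 CPM (-0.31 ± 0.0623 SE, adjusted p = 0.000171), and was 0.07 and 0.13 after the corrections. DNAJB6, a suppressor of polyglutamine aggregation, had 102.6 and 102.7 CPM in control against 108.6 and 106.3 CPM in siAARS1. It did not pass (0.06, adjusted p = 0.181), but was lower past the threshold after both corrections (-0.23 and -0.47) and with median scaling (-0.16). With edgeR it passed as higher (0.10, adjusted p = 0.0428). Of these 5 cytosolic class B genes, 1 rose and 3 fell, where 32.6% of all genes were higher and 38.0% lower. After the correction for GC content and length 0 were higher and 4 lower, against 34.0% and 32.5% of all genes. After that for coding sequence and 3' UTR 1 was higher and 3 were lower, against 37.8% and 34.2% of all genes.

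As levels per kb, DNAJB1 and DNAJA1 changed places at the head of the family. In control DNAJB1 stood first at 108.5 CPM per kb and DNAJA1 second at 81.55, and in siAARS1 DNAJA1 stood first at 167.7 and DNAJB1 second at 77.19. DNAJB6 was at rank 3 in both, at 63.81 and 66.76. The CPM ratio of DNAJA1 to DNAJB1 was 0.756 and 0.826 in the control libraries and 2.20 and 2.37 in the siAARS1 libraries. Close neighbours in the order, such as DNAJB11, DNAJC8 and DNAJA3 in control at 50.08, 49.92 and 49.38 CPM per kb, lay within the spread of their libraries. DNAJC6 stood last in both groups, at 0.21 and 0.15 CPM per kb.

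The endoplasmic reticulum holds 10 of the members, among them luminal partners of HSPA5 (BiP). Of these 5 rose, 2 fell and 3 did not pass, where 32.6% of all genes were higher and 38.0% lower. DNAJC10 (ERdj5), a disulfide reductase that acts in degradation of misfolded proteins (chr2:182716041-182794464, plus strand), had 36.8 and 37.5 CPM in control against 110.6 and 118 CPM in siAARS1. Both siAARS1 libraries stood well above the controls (log2 fold change 1.60 ± 0.0507 SE, adjusted p = 3.47e-17). The corrections left 0.24 and -0.13, the second a fall with adjusted p = 0.0104, and the annotated transcript is 20129 bases long with a GC content of 37.4%. DNAJC3 (p58IPK), an HSPA5 cochaperone, had 17.2 and 16.8 CPM in control against 33.0 and 33.5 CPM in siAARS1 (0.92 ± 0.0698 SE, adjusted p = 1.23e-10). After the corrections it was -0.15 and -0.08, with adjusted p = 0.0538 and 0.268. DNAJB11 (ERdj3), a luminal holder of secretory clients, had 120.7 and 119 CPM in control against 113 and 115 CPM in siAARS1. Its groups did not overlap, yet it did not pass (-0.08, adjusted p = 0.0927). It was 0.0639 and did not pass after the correction for GC content and length, and it was lower past the threshold after that for coding sequence and 3' UTR (-0.37) and with median scaling (-0.31).

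Among the other luminal and membrane members the sizes were smaller, except for DNAJB14. DNAJB14, whose J domain faces the cytosol from the ER membrane (chr4:99896248-99946726, minus strand), had 5.34 and 5.08 CPM in control against 20.3 and 23.5 CPM in siAARS1 (1.88 ± 0.1 SE, adjusted p = 2.85e-13), and it stayed higher at 0.38 and 0.82 after the corrections. DNAJB12, its close relative in the same membrane, had 50.5 and 50.6 CPM in control against 49.96 and 48.8 CPM in siAARS1. It did not pass (-0.03, adjusted p = 0.591), but after both corrections it was higher past the threshold, at 0.22 and 0.37. With median scaling (-0.26) and quantile normalization (-0.16) it was lower past the threshold. The CPM ratio of DNAJB14 to DNAJB12 was 0.106 and 0.1 in control and 0.406 and 0.482 in siAARS1. DNAJB9 (ERdj4), a target of the unfolded protein response, rose from 8.71 and 9.30 CPM to 11.4 and 11.9 CPM (0.34 ± 0.0979 SE, adjusted p = 0.00425) and was -0.24 and -0.77 after the corrections. DNAJC1 (ERdj1), a membrane protein that binds ribosomes, fell from 33.4 and 34.3 CPM to 26.1 and 31.1 CPM (-0.24, adjusted p = 0.00642), but without the siAARS1 library of replicate 1 it was -0.12 and did not pass. After the corrections DNAJC1 was -0.03 and -0.38, of which the second passed, and DESeq2 did not call it (adjusted p = 0.11). DNAJC18 fell from 17.3 and 17.6 CPM to 12.9 and 13.7 CPM (-0.36 ± 0.0844 SE, adjusted p = 0.000669), with -0.54 and -0.70 after the corrections. DNAJC25 rose by 0.46, was 0.04 and 0.36 after the corrections, and shares its locus with the read-through gene DNAJC25-GNG10, which had 1.53 and 6.15 CPM in control against 1.13 and 0.84 CPM in siAARS1. DNAJC16 did not pass (0.19, adjusted p = 0.0946).

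The 6 mitochondrial members changed little before correction, with 2 higher, 2 lower and 2 that did not pass. Of all genes, 32.6% were higher and 38.0% lower. DNAJC11, associated with the cristae-organizing complex of the inner membrane, went from 114 and 116 CPM to 131 and 128 CPM (0.17 ± 0.0416 SE, adjusted p = 0.00104). It was -0.06 with median scaling, but 0.46 and 0.42 after the corrections, both past the threshold. The import motor cochaperones DNAJC19 and DNAJC15 did not pass. DNAJC19 had 24.9 and 23.4 CPM in control against 23.4 and 24.4 CPM in siAARS1 (-0.01, adjusted p = 0.883), with 9 named pseudogenes that make its reads uncertain. DNAJC15 had 7.01 and 6.75 CPM in control against 6.87 and 7.19 CPM in siAARS1 (0.03, adjusted p = 0.837). The groups overlapped in both genes, and both were lower after each correction, DNAJC15 at -1.22 and -0.24. The corrections rest on the annotated DNAJC15 transcript of 7853 bases, of which 6976 are 3' UTR, and whether these cells use that form was not tested. DNAJC30, linked to complex I, fell from 23.5 and 23.04 CPM to 18.4 and 19.8 CPM (-0.27, adjusted p = 0.00279), and DNAJC4 fell from 15.3 and 15.1 CPM to 10.6 and 11.2 CPM (-0.45, adjusted p = 0.000155). After the corrections DNAJC4 did not pass (-0.11 and 0.11), and DNAJC30 was -0.0052 and 0.26, of which the second passed as a rise.

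Of the 4 members of ribosomes and RNA processing, 3 rose and 1 fell, where 32.6% of all genes were higher and 38.0% lower. After each correction 2 of the 4 were higher, and 0 and then 1 were lower. Of all genes, 34.0% and 37.8% were then higher, and 32.5% and 34.2% lower. DNAJC2 (MPP11), which sits on the ribosome with the HSP70 protein HSPA14 and receives chains as they emerge (chr7:103312474-103344873, minus strand), had 8.86 and 8.76 CPM in control against 58.03 and 56.6 CPM in siAARS1. The siAARS1 mean was 6.51 times the control mean (log2 fold change 2.57 ± 0.071 SE, adjusted p = 3.77e-18), and the change was 2.21 and 1.48 after the corrections. It moved from rank 26 to rank 10 of the family in CPM per kb. Both genes that overlap it on the other strand changed far less, PSMC2 from 122 and 122 CPM to 147 and 155 CPM and PMPCB from 57.98 and 58.1 CPM to 62.5 and 65.2 CPM. DNAJC21, which acts in maturation of the large ribosomal subunit, rose from 23.5 and 25.3 CPM to 45.9 and 48.1 CPM (0.92 ± 0.0633 SE, adjusted p = 2.52e-11), with 0.66 and 0.19 after the corrections. Of the spliceosome members, DNAJC8 went from 86.4 and 89.3 CPM to 93.9 and 96.9 CPM (0.12, adjusted p = 0.0233), and it did not pass without control replicate 1 (0.0954) or without siAARS1 replicate 2 (0.0964). After the corrections DNAJC8 was -0.0079 and -0.11, of which the second passed as a fall, as did -0.11 with median scaling. DNAJC17 went from 19.7 and 20.4 CPM to 16.5 and 16.0 CPM (-0.29, adjusted p = 0.00286), and it was -0.0076 and 0.06 after the corrections.

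The vesicle and endosome members held the largest rise of the family. DNAJC13 (RME-8), which acts on early endosomes in sorting and clathrin removal (chr3:132417526-132539032, plus strand), had 6.13 and 7.501 CPM in control against 53.7 and 53.3 CPM in siAARS1. This was 7.85 times the control mean (log2 fold change 2.81 ± 0.0851 SE, adjusted p = 1.66e-17), and the change was 1.80 and 1.302 after the corrections. DNAJC6 (auxilin), the clathrin-uncoating cochaperone known from neurons, had 1.17 and 1.26 CPM in control against 0.81 and 0.96 CPM in siAARS1. Its lowest library held 25 reads. It did not pass as deposited (-0.23, adjusted p = 0.211), but was lower past the threshold after both corrections (-0.64 and -0.50). DNAJC5, the cysteine string protein of secretory vesicles, fell from 89.4 and 89.6 CPM to 78.9 and 70.7 CPM (-0.26, adjusted p = 0.000139) and was 0.07 and 0.11 after the corrections. DNAJC27, a Rab-like GTPase with a J domain, rose by 0.44 at 3.08 to 5.31 CPM and lost its call without control replicate 1 (0.31) and without siAARS1 replicate 1 (0.38).

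The remaining class C members lay between these extremes. DNAJC7, a TPR protein that links HSP70 and HSP90, rose from 72.1 and 73.1 CPM to 110.5 and 114 CPM (0.62 ± 0.0448 SE, adjusted p = 5.3e-11) and was 0.73 and 0.53 after the corrections. DNAJC9, a histone chaperone, rose from 66.7 and 62.3 CPM to 86.5 and 83.98 CPM (0.40 ± 0.0494 SE, adjusted p = 3.33e-07), with 0.30 and 0.75 after the corrections. It overlaps MRPS16 on the same strand, so reads in shared sequence are uncertain. DNAJC24, of diphthamide synthesis, rose by 0.55 and was 0.18 and -0.26 after the corrections, and DNAJC12 did not pass (-0.10, adjusted p = 0.521). DNAJC22 fell from 50.03 and 51.4 CPM to 34.7 and 37.2 CPM (-0.48 ± 0.0578 SE, adjusted p = 1.85e-07), with -0.16 and 0.01 after the corrections, and DNAJC14 fell by 0.27, with -0.07 and -0.08 after the corrections.

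The direction of change ran with base composition in the family as in the whole table. Among the 20 members whose transcript had a GC content under 45%, 13 rose, 0 fell and 7 did not pass, where 71.2% of all genes in that range were higher. Among the 11 between 45% and 55%, 3 rose and 6 fell, where 20.8% of all genes were higher and 42.3% lower. Among the 6 above 55%, 1 rose and 5 fell, where 65.6% of all genes were lower. Spearman's rho of log2 fold change with transcript GC content was -0.66 over the 37 members and -0.65 over 13819 genes, and with GC content of the coding sequence it was -0.77 over the members. Genes share the same 4 libraries and are not independent, so these are descriptions. The part of base composition in each gene's change was not tested. The corrections remove any true change that follows it as well.

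**Figure D4:**
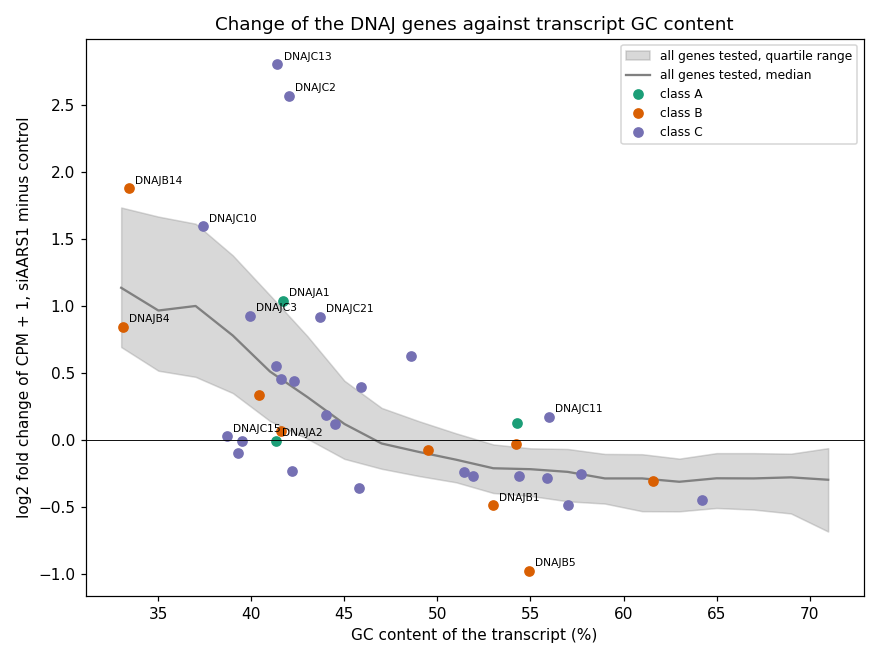
Log2 fold change of CPM + 1 (siAARS1 minus control) against the GC content of the transcript in percent, with 1 point per DNAJ gene coloured by class, and the median (line) and quartile range (band) of all genes tested. DNAJC13 and DNAJC2 lie above the band at their GC content, DNAJB1 and DNAJB5 below it, and DNAJB4 inside it.

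HSP70 is the enzyme that J proteins drive, and its genes, with those of HSP110-type relatives, were read beside them. Of these 16 genes, called HSP70 genes here, 7 rose, 8 fell and 1 did not pass, with a median of -0.10. Over all genes tested, 32.6% were higher and 38.0% lower. The constitutive cytosolic HSPA8 had 2560 and 2588 CPM in control against 3473 and 3443 CPM in siAARS1 (0.43 ± 0.0348 SE, adjusted p = 4.76e-10), but it was -0.0013 after the correction for coding sequence and 3' UTR. The mitochondrial HSPA9 rose from 389 and 399 CPM to 655 and 656 CPM (0.73 ± 0.0345 SE), with 0.53 and 0.47 after the corrections. HSPA5 (BiP) of the endoplasmic reticulum was slightly lower, at 852 and 859 CPM in control against 792 and 795 CPM in siAARS1 (-0.11, adjusted p = 0.00665). It did not pass with quantile normalization, edgeR or DESeq2 (adjusted p = 0.0883, 0.0697 and 0.129). After the corrections it was -0.22 and -0.24, both past the threshold.

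The largest rises among these genes were in HSPA4L (2.17), HSPH1 (2.17), HSPA13 (1.34) and HSPA4 (1.26), of which HSPA4L, HSPH1 and HSPA4 encode HSP110-type exchange factors. After the corrections HSPA4L was 0.72 and 0.66, HSPH1 1.13 and 0.84, and HSPA4 0.61 and 0.35, while HSPA13 was 0.09 (adjusted p = 0.211) and 0.46. The largest falls were in the stress-inducible HSPA6, from 22.3 and 22.6 CPM to 3.27 and 3.52 CPM (-2.42 ± 0.101 SE, adjusted p = 4.39e-15), and in HSPA1A (-1.12), HSPA2 (-1.11) and HSPA1B (-0.61). HSPA1A had 6.36 and 6.08 CPM in control against 3.59 and 1.41 CPM in siAARS1. Its value was -1.58 without siAARS1 replicate 1 and -0.65 without siAARS1 replicate 2, and DESeq2 did not call it (adjusted p = 0.0714). HSPA1A and HSPA1B are near-identical copies, so the split of reads between them is uncertain. Relative to HSPA8, DNAJA1 had a CPM ratio of 0.0742 and 0.0766 in control and 0.114 and 0.117 in siAARS1, while DNAJB1 had 0.0981 and 0.0928 in control and 0.0518 and 0.0493 in siAARS1. The ratio of DNAJC2 to its ribosomal partner HSPA14 was 0.208 and 0.211 in control and 1.04 and 0.992 in siAARS1. In all 3 ratios the groups did not overlap.

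**Figure D5:**
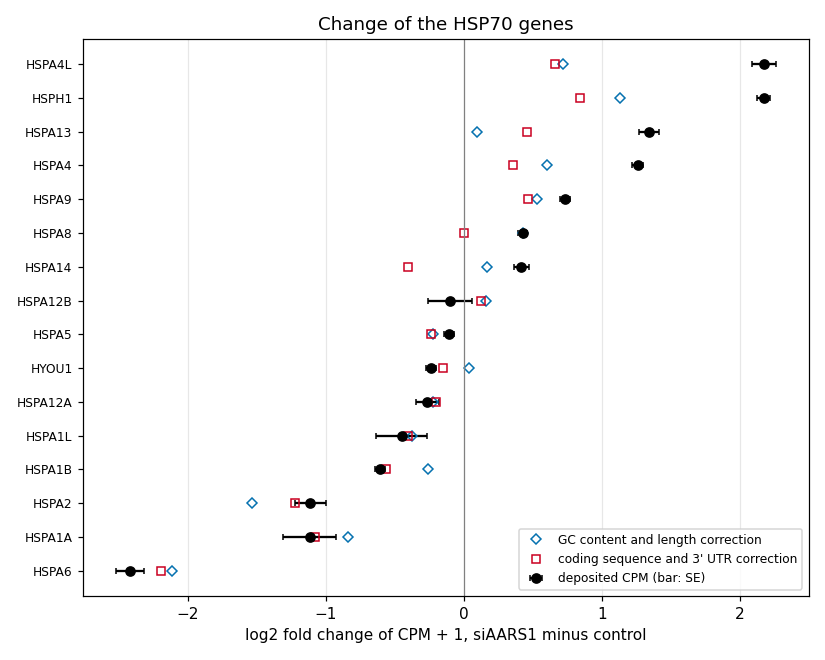
Log2 fold change of CPM + 1 (siAARS1 minus control) of the 16 HSP70 genes, as deposited (black, bar 1 SE) and after the corrections for GC content and length (diamonds) and for coding sequence and 3' UTR (squares). HSPA6 stays near -2.42 to -2.11 in all 3, and HSPA4L and HSPH1 move from 2.17 toward 0 without reaching it.

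Heat shock factor binds repeats of a short unit in opposite orientation. DNAJA1 and DNAJB1, whose promoters hold letters that match such repeats, moved in opposite directions here. Promoter sequences (RefSeq, GRCh38.p14) were matched by gene ID for 34 of the 37 members, all but DNAJC1, DNAJC22 and DNAJC24, and searched for GAANNTTC and TTCNNGAA, each of which reads the same on both strands, and for their overlapping forms GAANNTTCNNGAA and TTCNNGAANNTTC. In the sequences below the matches are in capitals, from chr9:33025023-33025322 (plus strand) for DNAJA1 and chr19:14518348-14518647 (minus strand) for DNAJB1.
DNAJA1: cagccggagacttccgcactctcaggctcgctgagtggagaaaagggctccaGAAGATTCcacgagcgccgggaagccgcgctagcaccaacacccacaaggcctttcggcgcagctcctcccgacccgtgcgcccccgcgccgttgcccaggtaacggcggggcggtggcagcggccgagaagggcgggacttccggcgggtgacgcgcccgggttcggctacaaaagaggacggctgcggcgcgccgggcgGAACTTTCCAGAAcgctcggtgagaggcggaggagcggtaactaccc
DNAJB1: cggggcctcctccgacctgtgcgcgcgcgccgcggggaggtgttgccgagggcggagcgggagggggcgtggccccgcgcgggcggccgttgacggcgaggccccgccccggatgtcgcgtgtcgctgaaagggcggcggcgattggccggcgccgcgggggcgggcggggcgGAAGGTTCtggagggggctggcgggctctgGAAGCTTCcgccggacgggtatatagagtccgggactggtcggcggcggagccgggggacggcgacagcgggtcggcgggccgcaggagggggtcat
A match was found in 6 of the 34 members (DNAJA1, DNAJB1, DNAJB4, DNAJB6, DNAJC6 and DNAJC15), against 13.8% of the 10387 listed genes with a promoter and 13.5% of all 35116 promoters of that length. The longer form was found in DNAJA1 and DNAJB6, against 0.472% of the listed genes. A match was held by 2 of the 16 members that rose, by 1 of the 9 that fell and by 3 of the 9 that did not pass. A match is a description of the letters and not a shown binding site.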

How the data were processed

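RNA-seq of HGC27 cells was measured in 4 libraries, 2 control and 2 siAARS1, grouped by their titles. The authors deposited 1 table of CPM values for 14431 genes. The submitters' processing notes name RSEM 1.3.3 and hg38 without a role, and the aligner, strand use and annotation are not given in the sources used here. Every deposited CPM value was a whole multiple of the value of 1 read (100% of values, tolerance 0.05 reads). The members and gene lists were chosen with earlier results of these data known.

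The test was limma 3.58.1 (eBayes with trend, R 4.3.3) on log2(CPM + 1), siAARS1 against control, over the 14199 genes whose mean reached 1 CPM in either group, with Benjamini-Hochberg adjustment over all of them and a threshold of 0.05. Fold changes on this scale understate those of low genes, and SE is from the fit over n = 2 libraries a group. The text of the study read here describes an enrichment analysis, and its test of single genes, if any, is not given in the sources used here. The text names AARS, the class A genes, the 5 largest rises and falls in classes B and C that reach a mean of 5 CPM, members with set roles, HSPA8, HSPA5, HSPA9, HSPA1A, HSPA1B and up to 4 genes of each partner list by size of change. Other members are given by their values in their role group. CHORDC1, SERPINH1, HSPB1 and HYOU1 are named besides these.

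Coordinates, GC content and lengths are those of GENCODE v29 (GRCh38), matched by gene identifier for 97.2% of listed genes, with 1 transcript a gene, and CPM per kb rests on it. Corrections took out of each library a smooth trend (mgcv 1.9.3) on transcript GC content and length, or on coding sequence and 3' UTR. Alternatives were a pseudocount of 0.1, no filter, median scaling, quantile normalization, a threshold of 0.01, the replicate block, leaving out each library, and edgeR 4.0.16 (TMM, quasi-likelihood) and DESeq2 1.42.0 on the recovered reads. The fits were tested on simulated data. Replicates differed beyond sampling noise (chi-square per gene 3.63 and 3.62) and were kept as separate samples. Limits from counts cover counting error only.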

Additional observations from a re-analysis of the deposited data

How the results depend on the processing

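Of the 37 members, 17 were higher and 11 lower, and the counts were 17 and 11 with a pseudocount of 0.1, without the filter, with the replicate block, and in the 12164 genes of the coding sequence and 3' UTR correction without that correction, which was chosen after seeing the data. They were 15 and 11 at a threshold of 0.01, 18 and 11 with edgeR and 17 and 8 with DESeq2. Leaving out 1 library gave 15 to 16 higher and 10 to 11 lower members, 1 to 2 class A members higher and 0 to 0 lower, 3 to 3 class B members higher and 3 to 3 lower, 10 to 12 class C members higher and 7 to 8 lower, and 7 to 7 HSP70 genes higher and 7 to 8 lower. Class A had 1 member higher at a threshold of 0.01, since DNAJA3 was lost. Class C had 5 members lower and the HSP70 genes 4 lower with DESeq2. With 2 libraries a group, a left-out library leaves 1 sample that is assumed to vary like the other group. The replicate numbers are not stated to mark pairs (correlation of same-numbered deviations 0.118, over 2 pairs), and the replicate block alone changed no member's call. Added to the correction for GC content and length, it made DNAJC3 (-0.147) pass as lower, with adjusted p = 0.0493 against 0.0538.

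Scaling decided many small changes. Median scaling left 17 members lower, with 1 class A member higher and 1 lower and 6 class B members lower, and turned DNAJC11 (-0.0567), DNAJC8 (-0.11), DNAJA3 (-0.10), DNAJB6 (-0.16), DNAJC16 (-0.0217) and DNAJC15 (-0.17). Quantile normalization left 5 class B members lower and turned DNAJC16 (-0.0383) and DNAJC15 (-0.15). Over all genes, higher calls were 46.2% of calls, against 29.7% with median scaling, 37% with quantile normalization, 50.3% with edgeR and 53.8% with DESeq2. DNAJB12, DNAJA2 and DNAJC19 turned to 0.0043, 0.0293 and 0.0239 with edgeR and to 0.0189, 0.044 and 0.0387 with DESeq2. With 1 library left out, DNAJA2 ranged from -0.0326 to 0.0168, DNAJC19 from -0.0552 to 0.0299, DNAJC12 from -0.254 to 0.0573 and DNAJC15 from -0.002 to 0.0562.

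The correction for GC content and length left 11 members higher, with 1 class A and 5 class B members lower and 7 class C members higher, and these 4 counts stayed with the replicate block. Members lower were 13, and 14 with the block, and class C members lower were 7, and 8 with the block. With and without the block it turned DNAJC3 (-0.15), DNAJB4 (-0.32), DNAJC5 (0.0699), DNAJB2 (0.0719), DNAJC27 (-0.14), DNAJB9 (-0.24), DNAJC8 (-0.0079), DNAJB11 (0.0639), DNAJB6 (-0.23), DNAJC16 (-0.29), DNAJB12 (0.22) and DNAJC15 (-1.22), and among partner genes BAG4 (-0.375) and GAK (0.184). The correction for coding sequence and 3' UTR left 1 class A and 5 class B members lower and turned DNAJC10 (-0.13), DNAJC3 (-0.0814), DNAJB4 (-0.29), DNAJC22 (0.0134), DNAJC5 (0.11), DNAJB2 (0.13), DNAJC24 (-0.26), DNAJC4 (0.11), DNAJC30 (0.26), DNAJC17 (0.0628), DNAJB9 (-0.77), DNAJC8 (-0.11), DNAJB6 (-0.47), DNAJC16 (-0.19), DNAJB12 (0.37) and DNAJC15 (-0.24), and HSPA8 (-0.0013). Beyond the construction of each setting, the cause was not tested. The lowest read count of a member in a library was 25, in DNAJC6.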

Other observations

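Genes that work with the DNAJ family moved in both directions. Nucleotide exchange factors release ADP and client from HSP70. Of 10 such genes 4 rose, 3 fell and 3 did not pass, with a median of 0.06. Not among these 10 were the HSP110-type genes HSPA4L (2.17), HSPH1 (2.17), HSPA4 (1.26) and HYOU1 (-0.24), counted with the HSP70 genes. Over all genes tested, 32.6% were higher and 38.0% lower. After the correction for GC content and length 3 of the 10 were higher and 6 lower, against 34.0% and 32.5% of all genes. The correction for coding sequence and 3' UTR covered 9 of them. There 5 were higher and 4 lower, against 37.8% and 34.2% of all genes. BAG3, an exchange factor that couples HSP70 to selective autophagy, fell from 36.5 and 39.2 CPM to 22.1 and 20.2 CPM (log2 fold change -0.81 ± 0.0693 SE, limma adjusted p = 9.72e-10). BAG4 rose by 0.55, but was -0.37 after the correction for GC content and length and 0.33 after that for coding sequence and 3' UTR. J proteins whose symbols do not begin with DNAJ were read as well. SEC63, the J protein of the ER translocation channel, rose from 26.8 and 28.7 CPM to 86.0 and 92.6 CPM (1.65 ± 0.0571 SE, adjusted p = 1.5e-16), with 0.42 after either correction. HSCB of iron-sulfur cluster assembly fell (-0.40), but did not pass without siAARS1 replicate 2 (-0.32), with DESeq2 or after the correction for coding sequence and 3' UTR (-0.10). GAK, the widely expressed relative of auxilin, fell (-0.20), but was higher past the threshold after the correction for GC content and length (0.18). After that for coding sequence and 3' UTR GAK was lower past the threshold (-0.08).

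Of 18 heat shock genes, 7 rose, 10 fell and 1 did not pass, with a median of -0.09. Over all genes tested, 32.6% were higher and 38.0% lower. After the correction for GC content and length 11 of the 18 were higher and 6 lower, against 34.0% and 32.5% of all genes. After that for coding sequence and 3' UTR 10 were higher and 5 lower, against 37.8% and 34.2% of all genes. HSP90AA1, the inducible cytosolic HSP90, rose from 458 and 466 CPM to 2867 and 2963 CPM (2.66 ± 0.0345 SE, adjusted p = 4.9e-23), with 2.20 and 1.88 after the corrections. HSPD1, the mitochondrial chaperonin, rose by 1.28 and CHORDC1 by 1.18, with 1.06 and 0.39 after the correction for GC content and length and 0.44 and 0.11 after that for coding sequence and 3' UTR. Among the 10 heat shock genes that fell, HSPA6 (-2.42) changed most. SERPINH1 fell from 1385 and 1378 CPM to 967 and 922 CPM (-0.55), and HSPB1 from 1143 and 1136 CPM to 811 and 765 CPM (-0.53). After the corrections SERPINH1 was -0.19 and -0.0145, of which the second did not pass. HSPB1 was -0.21 and 0.12, both past the threshold. Of 10 genes that work with HSPA5 in the endoplasmic reticulum, 2 rose and 8 fell, with a median of -0.28. After the correction for GC content and length 2 were higher and 6 lower. After that for coding sequence and 3' UTR 4 were higher and 4 lower, with a median of -0.03. Those that rose were HSP90B1 (1.53) and SEL1L (1.48), and among those that fell were SIL1 (-0.53), an exchange factor of HSPA5, and XBP1 (-0.52), a transcription factor of the unfolded protein response. HSP90B1 was 1.06 and 0.40, SEL1L 0.13 and 0.81, SIL1 -0.19 and -0.09, and XBP1 -0.35 and -0.03, after the corrections for GC content and length and for coding sequence and 3' UTR.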
